A study of Mus musculus with 6 samples.

Results

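Transcripts of 8 receptors that couple to inhibitory G proteins were followed in mouse dorsal root ganglia after injury of the kidney. They are the opioid receptor genes Oprm1, Oprd1, Oprk1 and Oprl1, the cannabinoid receptor genes Cnr1 and Cnr2, and the alpha2 adrenergic receptor genes Adra2a and Adra2c. The genes were chosen by symbol, each matched 1 row, and they are 8 of the 57180 genes in the deposited table. Dorsal root ganglia hold the cell bodies of sensory neurons beside the spinal cord, and the sampled ganglia (T8 to L2) span lower thoracic and upper lumbar levels. In the I/R group, 3 WT mice had the left renal pedicle clamped for 28 min and then released (ischemia-reperfusion), with removal of the right kidney. In the sham group, 3 WT mice had the same surgery without the clamp, and whether their right kidney was removed is not stated separately. Ganglia were taken 24 h after surgery in both groups, and neither age nor sex of the mice was given. The comparison asks how the ganglia changed after renal I/R.

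Opioid, cannabinoid and alpha2 adrenergic receptors are the targets of analgesic drugs in sensory neurons. They act through Gi and Go proteins, which inhibit adenylyl cyclase, open potassium channels of the GIRK type and restrain presynaptic calcium channels, so that less transmitter is released from the nerve terminal. The mu receptor (Oprm1), the delta receptor (Oprd1), the kappa receptor (Oprk1) and the nociceptin receptor (Oprl1) answer to peptides cut from the precursors Penk, Pdyn, Pomc and Pnoc. Cnr1 is the neuronal cannabinoid receptor, Cnr2 is best known from immune cells, and the alpha2 receptors answer to noradrenaline.

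No call was made among the 7 receptor genes that could be tested between I/R and sham ganglia, with edgeR's quasi-likelihood test at an adjusted p under 0.05, with DESeq2 or with limma-voom. In the same edgeR test, 1.15% of the 16346 tested genes were called, 0.722% higher and 0.428% lower in I/R. Only Oprm1 among the 7 had an unadjusted p under 0.05, against 10.5% of all tested genes. The median log2 fold change, I/R over sham, was -0.04 over the 7 genes and 0.00013 over all tested genes, with 3 of the 7 genes above 0 and 4 below. The 95% intervals of all 7 lay within a 2-fold change in either direction, and those of 5 lay within 1.5-fold. The intervals are unadjusted, and a change inside them cannot be told from none with 3 mice a group. The eighth gene, Cnr2, had too few reads to pass the filter on low counts. The 188 calls over all genes became 93 without sham 1, 87 without I/R 2, 98 without I/R 3, 32 with sham 2 alone against I/R and 26 with skeletal muscle RNA as a covariate, and no receptor gene was called in any of these fits.

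The libraries held 20234079 to 22010227 expected counts in I/R and 19092650 to 20390927 in sham. Levels are given as CPM, the count scaled to a TMM-adjusted library size, to compare libraries within a gene, or as TPM, which also divides by gene length, to compare genes. The sensory neuron markers Prph, Avil, Isl1, Pou4f1, Uchl1 and Rbfox3, all detected, summed to 4569 to 5843 CPM in I/R and 5213 to 5409 CPM in sham, so the label of the tissue fits its markers in every library. The 9 skeletal muscle genes summed to 4.25 to 12.0 CPM in I/R 1 to 3, where Mb, the myoglobin gene, had no count, and to 481, 13.9 and 248 CPM in sham 1 to 3. The 6 fibroblast and meningeal markers, all detected, summed to 339 to 398 CPM in I/R and 667 to 809 CPM in sham, and each was called lower in I/R. The 5 red cell genes summed to 52.8 to 86.6 CPM in I/R and 181 to 271 CPM in sham, and each was called lower too. The 4 mast cell genes summed to 1.23 to 2.03 CPM in I/R and 3.88 to 7.46 CPM in sham, without overlap for any of them, and 2 were called lower. Of the 4 satellite glia markers, Fabp7 was called lower, at 77.5 ± 9.91 CPM in I/R and 154 ± 36.5 CPM in sham. The log2 fold change was below 0 for 3 of the 4 and above 0 for 1, Glul. Glul stood at 528 ± 34.5 CPM in I/R and 422 ± 7.63 CPM in sham, without overlap, and was not called (edgeR adjusted p = 0.152). The 4 together summed to 2113 to 3060 CPM in I/R and 2759 to 3075 CPM in sham. The part of such tissue differences in the receptor values was not tested. In whole ganglia, fewer cells of a type and less RNA per cell cannot be told apart.

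**Figure D1:**
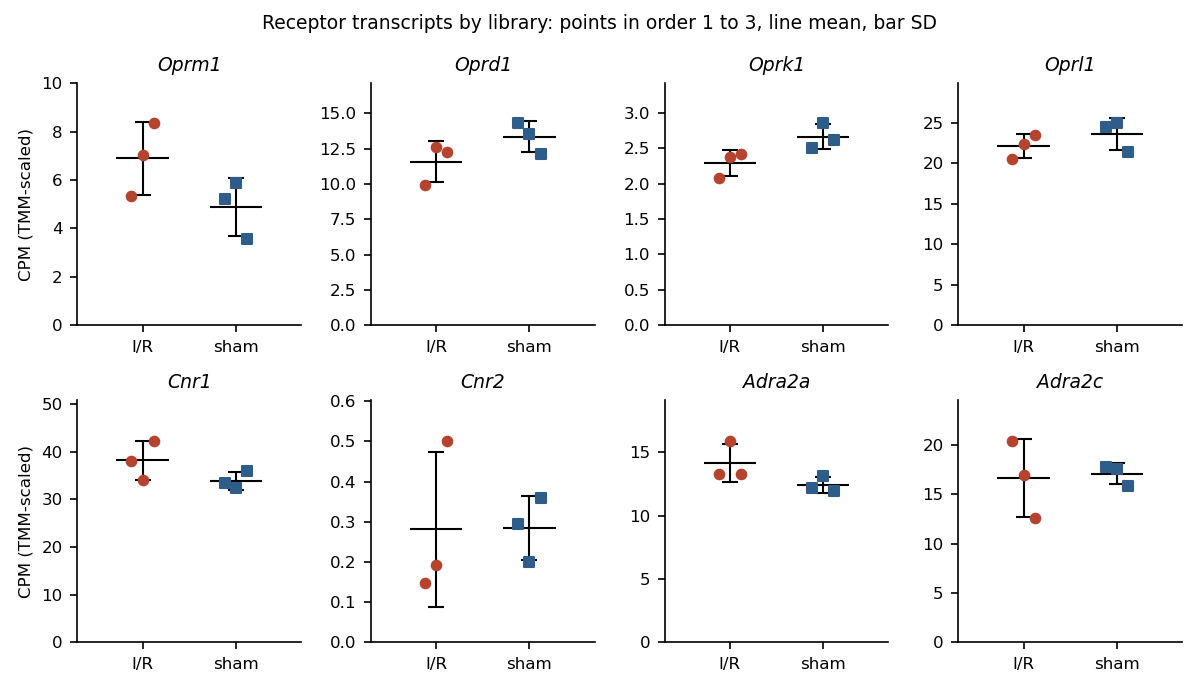
Level of each receptor gene in CPM (vertical axes, each from 0) in the 3 I/R and 3 sham libraries, with 1 point per library in the order 1 to 3, a line at the group mean and a bar of 1 SD. The groups separate without overlap for Oprk1 (I/R below sham) and Adra2a (I/R above sham), and overlap for the other 6 genes.

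Oprm1, the target of morphine, had the largest fold change of the 7 tested receptor genes. It stood at 5.34, 7.02 and 8.35 CPM in I/R 1 to 3, against 5.20, 5.90 and 3.55 CPM in sham 1 to 3. The groups overlapped, because I/R 1 lay below sham 2, and sham 3 was the lowest of the 6 libraries. The means were 6.90 ± 1.51 CPM in I/R and 4.88 ± 1.21 CPM in sham (SD, n = 3 each), a log2 fold change of 0.50 ± 0.22 SE (edgeR unadjusted p = 0.0497, adjusted p = 0.476). The 95% interval of the fold change ran from 1.00-fold to 2.00-fold. With 1 library left out the value ran from 0.32 without sham 3 to 0.65 without I/R 1 or sham 2. It was 0.20 with sham 2 alone against I/R and 0.31 with the muscle level as a covariate. Reads of Oprm1 came to 69 to 183 expected counts per library, and 1.19% of its exon bases in the GENCODE M21 annotation are also covered by exons of Ipcef1 on the opposite strand. The strand setting of the counting was not given. Ipcef1 itself stood at 1.36 ± 0.524 CPM in I/R and 0.819 ± 0.0175 CPM in sham.

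Oprd1, the delta receptor, leaned the other way. It stood at 9.93, 12.6 and 12.2 CPM in I/R 1 to 3, against 14.3, 13.6 and 12.1 CPM in sham 1 to 3. I/R 1 was the lowest library, and the groups touched only where I/R 2 and I/R 3 lay just above sham 3. The log2 fold change was -0.20 ± 0.13 SE, with a 95% interval from -0.50 to 0.10 (edgeR adjusted p = 0.659). It was -0.10 without I/R 1.

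Oprk1, the receptor of dynorphin, had the fewest reads of the opioid receptor genes. Its levels were 2.08, 2.37 and 2.42 CPM in I/R 1 to 3, against 2.50, 2.85 and 2.62 CPM in sham 1 to 3. Every I/R value lay below every sham value, but the difference between the means, 2.29 ± 0.186 CPM in I/R and 2.66 ± 0.176 CPM in sham, was small, with a log2 fold change of -0.21 ± 0.19 SE (edgeR adjusted p = 0.752). These levels rest on 42 to 57 expected counts per library.

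Oprl1, the nociceptin receptor, had the most reads of the 4 opioid receptor genes. It stood at 20.5, 22.3 and 23.5 CPM in I/R 1 to 3, against 24.5, 24.9 and 21.3 CPM in sham 1 to 3, with overlapping groups. The log2 fold change was -0.09 ± 0.11 SE, and its interval from -0.34 to 0.16 was among the narrowest of the 7 (edgeR adjusted p = 0.825). With 1 library left out the value ran from -0.16 without sham 3 to -0.04 without I/R 1, with -0.05 without sham 2, and it was -0.20 with sham 2 alone against I/R.

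Cnr1, the main cannabinoid receptor of neurons, had the most reads of the 8 genes. Its level was 38.2, 34.1 and 42.3 CPM in I/R 1 to 3 and 33.5, 32.3 and 35.9 CPM in sham 1 to 3. I/R 3 was the highest library, and I/R 2 lay inside the sham range. The log2 fold change was 0.17 ± 0.11 SE, with an interval from -0.07 to 0.41 (edgeR adjusted p = 0.646), and it was 0.09 without I/R 3.

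Cnr2, which immune cells express, was close to the detection limit. The table gave it 3.03, 4.15 and 11 expected counts in I/R 1 to 3 and 6, 4 and 7.01 in sham 1 to 3, where a count of 3 is the most that a count of 0 allows. That is 0.148 to 0.502 CPM in I/R and 0.200 to 0.360 CPM in sham. I/R 3 was the highest library and I/R 1 the lowest, so the groups overlapped. Without the filter on low counts its log2 fold change was -0.01 ± 0.66 SE, with an interval from -1.34 to 1.33 (edgeR adjusted p = 0.996), so a change of more than 2-fold in either direction could not be told from none at this depth. The 5 macrophage markers Adgre1, Csf1r, Cd68, Aif1 and Cx3cr1, all detected, summed to 26.9 to 30.4 CPM in I/R and 24.3 to 27.6 CPM in sham, and the 4 markers of B and T cells summed to 0.692 to 1.55 CPM in I/R and 0.786 to 0.900 CPM in sham.

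Adra2a, which encodes the alpha2A receptor through which clonidine-like drugs act, was the 1 receptor gene with every I/R value above every sham value. It stood at 13.3, 15.9 and 13.3 CPM in I/R 1 to 3, against 12.2, 13.1 and 11.9 CPM in sham 1 to 3. The gap was narrow, since I/R 1 and I/R 3 lay just above sham 2. The means were 14.2 ± 1.51 CPM in I/R and 12.4 ± 0.619 CPM in sham, with a log2 fold change of 0.19 ± 0.12 SE (edgeR adjusted p = 0.645). Without I/R 2 the value was 0.08. Taken with Oprk1, 2 of the 7 tested receptor genes had groups that did not overlap in CPM. Of all tested genes, 17.1% had groups that did not overlap. In TPM the groups of both receptor genes overlapped. Adra2a stood at 8.96 TPM in I/R 1 and 9.51 TPM in sham 2, and Oprk1 at 1.40 TPM in I/R 3 and 1.38 TPM in sham 1.

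Adra2c, the alpha2C receptor gene, had the highest coefficient of variation among the I/R libraries of the 7 tested receptor genes. It stood at 20.4, 16.9 and 12.6 CPM in I/R 1 to 3, against 17.8, 17.6 and 15.8 CPM in sham 1 to 3. The I/R libraries held both the highest and the lowest value, and the sham libraries lay between them. That coefficient was 23.5% in I/R and 6.22% in sham. The log2 fold change was -0.04 ± 0.17 SE (edgeR adjusted p = 0.957), and it turned to 0.13 without I/R 3 and was -0.21 without I/R 1. The summed sensory neuron markers were highest in I/R 1 and lowest in I/R 3 too, with sums of 5843, 5392 and 4569 CPM over I/R 1 to 3. Prph, Pou4f1 and Uchl1 fell in that order. Avil was instead lowest in I/R 1, at 1126.4, 1276.5 and 1182.3 CPM over I/R 1 to 3. Isl1 stood at 78.3, 78.5 and 79.3 CPM, and Rbfox3 at 227, 231 and 208 CPM, in the same libraries. The part of these markers in the spread of Adra2c was not tested.

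**Figure D2:**
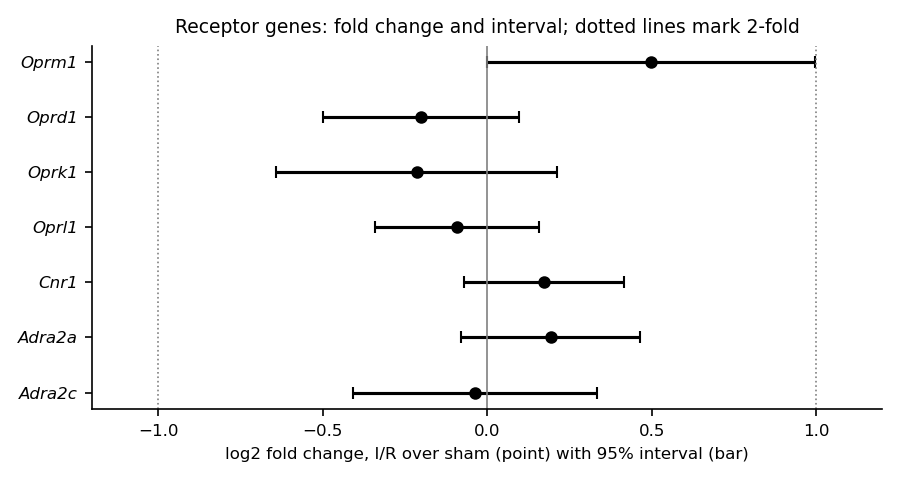
Log2 fold change of the 7 tested receptor genes, I/R over sham (horizontal axis), as a point with its unadjusted 95% interval from edgeR's fit. All intervals lie between the dotted lines at a 2-fold change; that of Oprm1 starts just above 0, and the other 6 include 0.

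Per length, the receptor genes spanned about 2 orders of magnitude. Oprl1 averaged 19.0 ± 2.32 TPM in I/R and 20.0 ± 2.27 TPM in sham. Cnr1 came next with 16.9 ± 2.43 TPM in I/R and 14.9 ± 0.335 TPM in sham, and their ranges over the 6 libraries overlapped, although Oprl1 was the higher in each of the 6. A middle group of 4 genes followed, whose highest member, Adra2c, did not overlap with Cnr1. Adra2c averaged 12.3 TPM in I/R and 12.6 TPM in sham, and Adra2a averaged 10.2 TPM in I/R and 8.80 TPM in sham. Oprm1 averaged 10.6 TPM in I/R and 7.38 TPM in sham, and Oprd1 averaged 7.44 TPM in I/R and 8.45 TPM in sham. Neighbours within this middle group overlapped in range. Below them, Oprk1 at 1.26 TPM in I/R and 1.45 TPM in sham and Cnr2 at 0.193 TPM in I/R and 0.187 TPM in sham stood apart from the genes above them in every library. Among tested genes, 55.9% had a lower sham mean than Oprl1 and 12.8% a lower one than Oprk1.

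The order of the middle group depends on the gene lengths. The authors' length column gives 1695 bases for Oprm1, 3592 for Adra2a and 2999 for Oprl1, whereas their longest transcripts in GENCODE M21 are 2420, 4832 and 3102 bases. With the longest transcript as the length, an alternative chosen after seeing the data, Oprm1 averaged 7.39 TPM in I/R and 5.17 TPM in sham, and the order of the middle group became Adra2c, Oprd1, Adra2a and Oprm1. Oprl1, Cnr1, Adra2c, Oprk1 and Cnr2 held their ranks. The ratio of Adra2c to Adra2a per length was 1.60, 1.11 and 0.986 in I/R 1 to 3 and 1.52, 1.40 and 1.38 in sham 1 to 3, so the I/R libraries spanned the sham range on both sides.

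**Figure D3:**
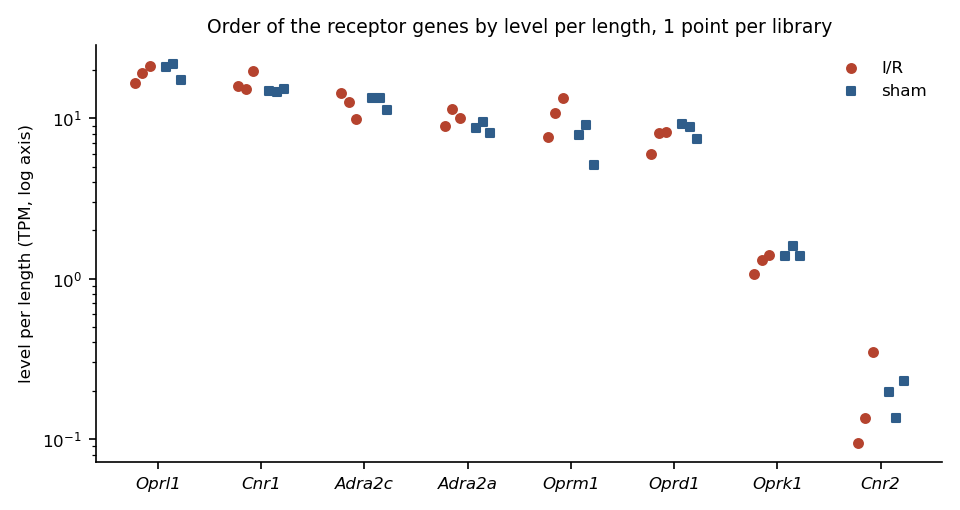
Level per length in TPM (vertical log axis) of the 8 receptor genes, ordered by their mean over the 6 libraries, with I/R libraries as circles and sham libraries as squares. Oprk1 and Cnr2 lie below the other genes in every library, and the ranges of the 6 upper genes overlap with at least 1 neighbour.

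Oprl1 held the largest share of the opioid receptor transcripts in every library. Of the summed TPM of the 4 opioid receptor genes, Oprm1 took 24.4, 27.2 and 30.2% in I/R 1 to 3, against 20.1, 22.1 and 16.4% in sham 1 to 3. Every I/R share of Oprm1 was above every sham share, while the change of Oprm1 itself did not pass the test. Oprd1 took 18.6 to 20.6% in I/R and 21.4 to 23.6% in sham, again without overlap and on the opposite side. Oprl1 took 48.0 to 53.0% in I/R and 52.7 to 55.6% in sham, which overlapped, and Oprk1 took 3.17 to 3.44% in I/R and 3.50 to 4.39% in sham, without overlap. The shares of 1 library add up to the whole, so they are not separate results. They were computed after the gene values had been seen and are given as a description without a test, and they rest on the authors' lengths, which scale the shares but not the change in the ratio of Oprm1 to Oprd1.

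**Figure D4:**
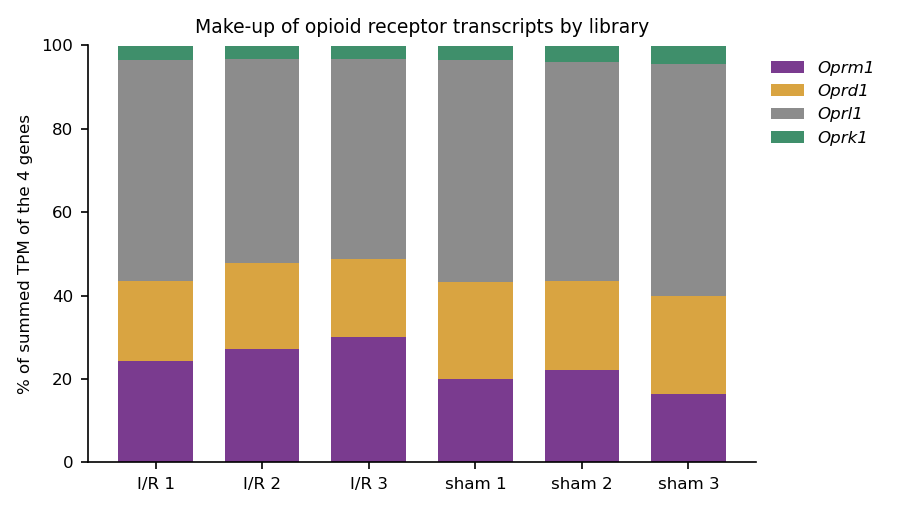
Share of each opioid receptor gene in the summed TPM of the 4 genes (vertical axis, percent), with 1 bar per library, I/R on the left and sham on the right. The Oprm1 segment at the base runs from 24.4 to 30.2% in I/R and from 16.4 to 22.1% in sham.

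Across the 6 libraries the receptor genes did not vary as 1 block. As a description, the log2 CPM of Oprd1, Oprk1 and Oprl1 went together, with Pearson r of 0.776 between Oprd1 and Oprk1, 0.872 between Oprd1 and Oprl1, and 0.690 between Oprk1 and Oprl1, while Oprm1 had r of 0.070 with Oprd1 and 0.651 with Adra2a. The values of all genes in 1 library share its depth and tissue make-up, and the groups differ in the fibroblast, red cell and mast cell markers given above. The genes most like each receptor gene over the 6 libraries were Noc4l and Nprl3 for Oprm1 (r of 0.999 and 0.996), Lpar5 and Adamtsl1 for Oprd1 (0.993 and 0.990), Mettl9 and Srms for Oprk1 (0.996 and 0.989), Adar and Zfp365 for Oprl1 (0.994 for both), Pptc7 and Lrig2 for Cnr1 (0.992 for both), Mfsd10 and Ncmap for Adra2a (0.978 and 0.975), and Thap7 and Ckb for Adra2c (0.994 and 0.991). With 13523 genes compared over so few libraries, high values are common: 8 to 181 genes had an r over 0.95 with 1 of the receptor genes.

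The starts of the receptor genes differ in base composition. Promoter windows of 300 bases, 250 before to 50 after an annotated start, were taken from RefSeq on GRCm38.p6, an older build than that of the counts. The table held 14 windows for 7 of the 8 genes, all but Oprk1. The motifs searched were TGANTCA and TGACGTCA, the AP-1 and CRE sites bound by the Jun and Atf families to which injury-induced factors belong, both of which read the same on either strand, and the GC box GGGCGG, searched on both strands. Neither TGANTCA, present in 7.81% of all 32851 windows in the table, nor TGACGTCA, present in 1.79%, occurred in any of the 14 windows. The GC box, present in 35.7% of all windows, occurred in 3 of the 14, 1 each of Oprd1, Cnr1 and Adra2a. The windows of Oprm1, Oprd1 and Adra2a are shown because of the values given above. Oprm1 had the largest fold change of the tested receptor genes, Oprd1 the opposite sign, and Adra2a I/R levels all above sham in CPM. None of these genes passed the test. Capitals mark the GC box. Of the 3 Oprm1 windows in the table, the middle one by position is shown; another starts 6 bases after it and the other lies upstream, with 47.3% G and C. The Oprm1 window shown, chr10:6788320-6788619 on the plus strand, has 52% G and C and no GC box, the Oprd1 window, chr4:132144437-132144736 on the minus strand, has 79.3%, and the Adra2a window, chr19:54045009-54045308 on the plus strand, has 68.7%.
Oprm1: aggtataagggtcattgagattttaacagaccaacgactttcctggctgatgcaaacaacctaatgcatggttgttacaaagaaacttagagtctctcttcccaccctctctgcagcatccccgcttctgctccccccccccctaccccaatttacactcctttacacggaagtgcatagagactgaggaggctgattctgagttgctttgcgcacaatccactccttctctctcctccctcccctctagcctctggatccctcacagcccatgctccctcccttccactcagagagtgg
Oprd1: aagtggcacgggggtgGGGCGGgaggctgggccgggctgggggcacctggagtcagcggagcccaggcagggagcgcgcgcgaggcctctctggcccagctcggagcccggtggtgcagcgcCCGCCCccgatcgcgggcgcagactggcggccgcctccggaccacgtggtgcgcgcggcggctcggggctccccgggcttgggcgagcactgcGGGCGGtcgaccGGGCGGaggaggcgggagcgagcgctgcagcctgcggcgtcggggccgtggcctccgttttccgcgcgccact
Adra2a: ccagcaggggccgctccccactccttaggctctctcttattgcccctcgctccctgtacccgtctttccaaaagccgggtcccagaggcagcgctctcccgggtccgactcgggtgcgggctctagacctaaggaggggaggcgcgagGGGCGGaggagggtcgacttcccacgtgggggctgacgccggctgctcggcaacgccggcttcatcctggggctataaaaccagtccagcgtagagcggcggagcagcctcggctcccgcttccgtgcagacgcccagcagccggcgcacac

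The ligands, enzymes and effectors around these receptors gave no call either. Of 107 genes on 13 lists, 96 passed the filter, and the count of calls was 0 with edgeR, with DESeq2 and with limma-voom, against 1.15% of all genes with edgeR. An unadjusted edgeR p under 0.05 was found for 8 of the 96, against 10.5% of all tested genes. Of the 96, 58 lay above 0 and 38 below, while 50.024% of all tested genes lay above 0. The median log2 fold change of the 96 was 0.03. Groups did not overlap for 10 genes higher in I/R and 8 lower, against 9.23% and 7.83% of all tested genes. The genes named below had the smallest p of their lists, so their values lean toward large differences.

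Among the opioid peptide precursors, Penk, which encodes the enkephalins, stood at 5.83, 5.71 and 5.61 CPM in I/R 1 to 3, against 5.16, 3.70 and 4.22 CPM in sham 1 to 3. The groups did not overlap, and the log2 fold change was 0.39 ± 0.17 SE (edgeR adjusted p = 0.444). Pnoc, the nociceptin precursor, averaged 0.447 CPM in I/R and 0.536 CPM in sham (-0.26 on the log2 scale, edgeR adjusted p = 0.851). Pdyn, the dynorphin precursor, with 2 to 7 counts a library in I/R and 2 to 6 in sham, and Pomc, the endorphin precursor, with 7 to 16 in I/R and 7 to 12 in sham, did not pass the filter. All 6 peptide-processing genes lay above 0, by 0.05 to 0.44, but none of the 6 had an unadjusted edgeR p under 0.05. Cpe, carboxypeptidase E, stood at 709 ± 5.69 CPM in I/R and 658 ± 20.5 CPM in sham. It was the only 1 of the 6 without overlap. The processing inhibitor Pcsk1n stood at 234 ± 129 CPM in I/R and 172 ± 27.2 CPM in sham.

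Of 12 genes for making and breaking down endocannabinoids, 8 lay above 0 and 4 below, with a median of 0.07. Abhd4, a lipase on the route to anandamide, stood at 119, 131 and 131 CPM in I/R 1 to 3, against 155, 167 and 133 CPM in sham 1 to 3, just without overlap, with a log2 fold change of -0.26 ± 0.11 SE (edgeR adjusted p = 0.428). Plcb4, a phospholipase C gene, had a log2 fold change of 0.21. The main degrading enzymes Faah, for anandamide, and Mgll, for 2-arachidonoylglycerol, were outside the naming rule and had values of -0.14 and -0.04. Gpr119, a receptor for lipid amides, stood at 1.38, 1.99 and 1.92 CPM in I/R 1 to 3, above 1.23, 1.10 and 0.668 CPM in sham 1 to 3, with a log2 fold change of 0.81 ± 0.30 SE that did not pass the test (edgeR adjusted p = 0.351). Ppara, a nuclear receptor for fatty acid amides, had a value of 0.11.

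The noradrenaline side gave few reads from sympathetic neurons themselves. Th, tyrosine hydroxylase, which some low-threshold sensory neurons also express, stood at 104 ± 4.18 CPM in I/R and 112 ± 6.60 CPM in sham. Dbh, the enzyme that makes noradrenaline, had 0, 0 and 2 counts in I/R 1 to 3 and 0, 3 and 2 in sham 1 to 3, and the sympathetic transcription factor Hand2 had 1 count, in sham 2. Slc6a2, the noradrenaline transporter, had 4 to 7 counts in I/R and 2 to 9 in sham. The 4 sympathetic markers, Th included, summed to 100 to 109 CPM in I/R and 107 to 120 CPM in sham, nearly all of it Th, and Dbh and Hand2 were at or near 0 in all 6 libraries. Cyb561, a cytochrome of secretory vesicles, had a log2 fold change of 0.16. Maob, a monoamine oxidase gene, had a value of 0.17.

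The other adrenergic receptor genes had mean levels of at most 4.42 CPM in I/R and 3.47 CPM in sham. Of 7, 6 passed the filter. Adra2b, the remaining alpha2 receptor gene, stood at 0.939, 0.823 and 1.05 CPM in I/R 1 to 3, below 1.57, 1.30 and 1.39 CPM in sham 1 to 3, with a log2 fold change of -0.60 ± 0.26 SE (edgeR adjusted p = 0.46). It rests on 17 to 32 counts per library. Adrb1, a beta receptor gene, had a log2 fold change of -0.48 ± 0.33 SE with overlapping groups. Adrb3 had no count in the 3 I/R libraries and 0, 5 and 1 counts in sham 1 to 3.

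Downstream, the 14 inhibitory G protein subunit genes had a median log2 fold change of 0.01, with Gnai3 at 0.15 and Gng5 at -0.51, and the 9 adenylyl cyclase genes had a median of 0.05, with Adcy6 at -0.13 and Adcy3 at 0.13. Among the channel effectors, the GIRK subunit gene Kcnj9 had -0.32 and the N-type calcium channel gene Cacna1b 0.12. Receptor kinases and arrestins shut receptors off and take them in. Arrb1, beta-arrestin 1, stood at 565, 621 and 646 CPM in I/R 1 to 3, against 510, 552 and 482 CPM in sham 1 to 3, and the receptor kinase gene Grk6 at 91.6 to 99.1 CPM in I/R and 70.3 to 87.0 CPM in sham. Neither pair of groups overlapped, and the log2 fold changes, 0.25 ± 0.09 SE for Arrb1 and 0.25 ± 0.10 SE for Grk6, did not pass the test (edgeR adjusted p = 0.374 and 0.437).

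RGS proteins speed the switching-off of G proteins, and this list held the 2 smallest p-values of the 96 genes. Rgs8 stood at 67.0, 77.3 and 74.9 CPM in I/R 1 to 3, below 94.3, 96.3 and 90.1 CPM in sham 1 to 3, with a log2 fold change of -0.36 ± 0.09 SE (edgeR unadjusted p = 0.00358, adjusted p = 0.144). Rgs20 stood at 3.95, 2.76 and 2.78 CPM in I/R 1 to 3, above 1.82, 1.75 and 1.85 CPM in sham 1 to 3, with a log2 fold change of 0.81 ± 0.22 SE (edgeR unadjusted p = 0.00433, adjusted p = 0.16). The groups of both genes were well apart, in opposite directions. The 16 tested members had 7 values above 0 and 9 below. Of the receptor trafficking genes, Gprasp2 had a log2 fold change of -0.15 and Reep1 of 0.14.

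**Figure D5:**
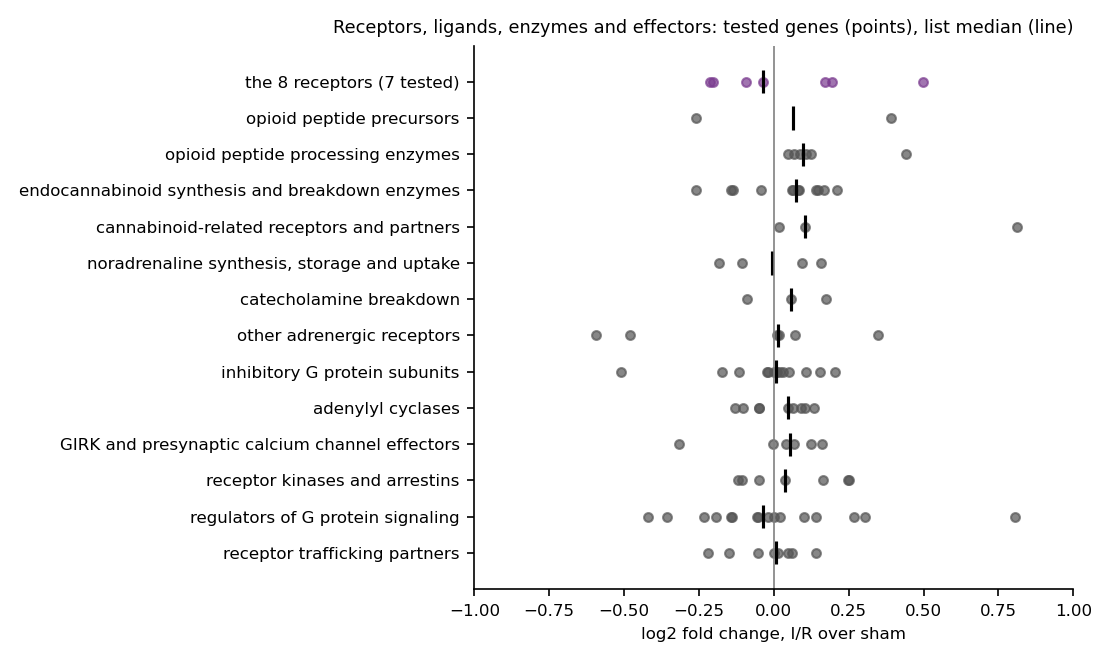
Log2 fold change, I/R over sham (horizontal axis), of every tested gene on the receptor list (top row) and on 13 lists of ligands, enzymes, other receptors and effectors, with a line at each list's median. Medians lie between -0.04 and 0.11 on every list, and single genes such as Gpr119 and Rgs20, at 0.81 each, stand farthest out.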

How the data were processed

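Per the labels' protocols, RNA was extracted with TRIzol and sequenced from stranded mRNA libraries. The tools named in the submitters' processing notes are fastp, HISAT2 and StringTie, and the build is GRCm39, without versions or roles. The authors deposited expected counts per gene, unscaled, of which 10.7 to 11.5% per library were not whole numbers; these were rounded for testing, although the design had foreseen counts as deposited. Gene length, another column by the authors, served only for TPM. Genes were tested with edgeR 4.0.16 in R 4.3.3 (quasi-likelihood, TMM, package filter on low counts, two-sided, Benjamini-Hochberg adjustment over 16346 genes). SE comes from the F statistic, and 95% intervals from the fit's degrees of freedom. Correlations used log2 CPM with a prior count of 2. Alternatives used DESeq2 1.42.0, limma-voom (limma 3.58.1), other scalings, filters and dispersions, a replicate block, left-out libraries and a muscle covariate (9 genes, leaving out Pvalb, which sensory neurons express). The fit was also run on counts simulated from its own dispersions, which cannot show how it handles tissue differences between libraries.

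The receptor genes and all lists were chosen with earlier results of these data known. Named genes were all receptors, the opioid precursors, the 2 genes of smallest p from each list, and the 2 most similar genes for each receptor. Faah, Mgll, Adrb3, Dbh, Hand2, Slc6a2 and Ipcef1 were added after their values were seen. A gene that the rule takes is not reported here. Chi-square per degree of freedom between libraries of a group was 4.05 to 27.9, so they differed by more than counting error. These values cannot tell separate mice from separate preparations of the same mouse. The labels number 3 mice a group but do not tie each library to its own mouse, so p-values measure the spread between libraries, which may be technical. The limit of 3 counts covers counting error alone, because reads lacked molecular identifiers.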

Additional observations from a re-analysis of the deposited data

How the results depend on the processing

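The counts of called receptor genes and of called ligand, enzyme and effector genes stayed at 0 under all 16 alternatives, and the sign of each tested receptor gene held under all of them except for Adra2c, whose log2 fold change ran from -0.21 to 0.13 with 1 library left out, 0.13 being without I/R 3. The lowest adjusted p of a receptor gene was 0.253, for Oprm1 without I/R 1. The count over all genes was 312 with DESeq2, 494 with no filter on low counts, 63 with the replicate block, 26 with the muscle covariate, 32 with sham 2 alone against I/R, and 87 to 181 with 1 library left out, against 188. The cause of these differences was not tested. Same-numbered libraries are not stated to be paired. Their deviations correlated at -0.106, 0.135 and -0.123, values that cannot show whether they were paired, and the block called no receptor gene. Of 8 ranks by level per length, 8 held with TMM-scaled values, 4 without length and 5 with the longest GENCODE M21 transcript. Depth limits Cnr2, Pdyn and Pomc, which did not pass the filter on low counts.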
